A study of Mus musculus
Rattus norvegicus and Mus musculus and Rattus norvegicus with 95 samples.

Results

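Annexins are cytosolic proteins that bind acidic phospholipids of membranes when calcium rises, through a conserved core of repeats, and differ mainly in the stretch that precedes that core. They act in membrane repair, vesicle traffic, endocytosis and the anchoring of actin to membranes, and several reach the cell surface. Fibroblasts, smooth muscle and other mesenchymal cells are known for high levels of Anxa1, Anxa2, Anxa5 and Anxa6. The 8 annexins described here, Anxa1, Anxa2, Anxa3, Anxa4, Anxa5, Anxa6, Anxa7 and Anxa11, were taken by name from the 11 annexin rows among 13926 mouse-rat homologues, and all 8 were found. They had been grouped as annexins gained on differentiation. That name held for 5 of them (Anxa1, Anxa2, Anxa3, Anxa5 and Anxa6), while Anxa11 fell and Anxa4 and Anxa7 did not pass the test. It held least firmly for Anxa1, whose groups overlapped and whose call was lost in 4 of 17 alternative analyses.

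Transcripts were sequenced in cells that descend from allodiploid embryonic stem cells (AdESCs), hybrid stem cells whose nucleus holds 1 set of mouse chromosomes and 1 set of rat chromosomes. The differentiated set held 63 single cells in 7 samples, each with cells of 1 kind derived from 1 AdESC line. They were embryoid bodies (EBs, aggregates in which stem cells differentiate) of lines MR2-1 and RM1-1, fibroblasts of MR1-1, neurons of RM1-1, somatic testis cells of RM1-1 and RM2-1, and lung cells of RM2-1. They were set against 24 single AdESCs of the lines MR1-1, MR2-1, RM1-1 and RM2-1, 1 sample per line, and all 11 samples therefore share the double genome. Fibroblasts, neurons and the RM1-1 testis cells came from mouse chimaeras, and the lung and RM2-1 testis cells from rat chimaeras, animals grown from a host embryo and the hybrid stem cells. A further 8 bulk libraries of cells in G0/G1 covered the same 4 AdESC lines, the diploid rat ESC lines DA25 and DA53 and the diploid mouse ESC lines F145 and F146. Strain, age and sex of the animals are not given in the sources used here. The fibroblast, neuron and lung types have 1 sample each, so cell type and line cannot be told apart for them.

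Values are FPKM, fragments scaled to transcript length and to library size, so levels of different genes may be set side by side. Read depth is unknown. Genes at 1 FPKM or more numbered 3444 to 6076 per differentiated cell (median 5009), 4211 to 6246 per AdESC (median 5181.5) and 7835 to 8770 per bulk library. Several tissue labels were not matched, or only in part, by their markers. In the lung sample 8 of 9 measured lung epithelial markers, Sftpc and Epcam among them, were listed at 0 and the list summed to 0.1 FPKM, while all 5 measured smooth muscle markers were present with a sum of 3383 FPKM. The testis sample of RM1-1 had 7 of 10 neuron markers and 4 of 6 glial markers at 1 FPKM or more. Of the 6 measured Sertoli markers, Amh, Wt1 and Gata4 lay at or near 0 there. The median cell of this sample had 1 Sertoli and 1 glial marker at 10 FPKM or more. In AdESC samples it had 0 to 0.5 of either list. The testis sample of RM2-1 summed to 5585 FPKM for the smooth muscle list, which also serves for myoid cells, with Amh at or near 0. Its median cell had 2 of 6 Sertoli markers at 10 FPKM or more, against 0 to 0.5 in AdESC samples. EBs of MR2-1 and lung cells had 2 as well. Fibroblasts had 12 of 14 fibroblast markers at 1 FPKM or more in the sample mean, but the median cell had 3.5 of them at 10 FPKM or more, against 2 in AdESCs, and Epcam averaged 82.7 FPKM. The neurons had 9 of 10 neuron markers together with 316 FPKM of the astrocyte transporter Slc1a3. Their median cell had 3 of the neuron markers at 10 FPKM or more, against 2 to 2.5 in AdESC samples and 3 in RM1-1 testis cells. The 6 measured pluripotency markers summed to 656 to 898 FPKM in AdESC samples. These labels are used below as names of samples.

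The coding sequences of the 8 genes show what separates Anxa7 and Anxa11 from the rest of the family. Both code for a long stretch rich in proline, glycine and tyrosine ahead of the core. Of the first 100 codons 28 are CCN, the codons of proline, in Anxa7 and 25 in Anxa11, against 1 to 4 in Anxa1, Anxa2, Anxa3, Anxa4, Anxa5 and Anxa6. The first 90 coding bases are printed from the GENCODE mouse annotation of GRCm38 (the build also called mm10), 5′ to 3′ on the coding strand, with in-frame CCN codons in capitals. They are shown for the annexin with the highest group mean, for the one with the largest rise and for both with the proline-rich stretch.
Anxa2: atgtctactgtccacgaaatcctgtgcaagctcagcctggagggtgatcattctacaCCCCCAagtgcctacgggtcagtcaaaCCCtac
Anxa5: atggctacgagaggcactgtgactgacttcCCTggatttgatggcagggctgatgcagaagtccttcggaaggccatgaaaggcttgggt
Anxa7: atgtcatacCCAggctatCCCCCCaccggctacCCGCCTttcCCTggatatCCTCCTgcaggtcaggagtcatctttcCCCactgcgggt
Anxa11: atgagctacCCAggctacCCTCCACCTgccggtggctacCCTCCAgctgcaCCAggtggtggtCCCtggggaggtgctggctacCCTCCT

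The opening codons of Anxa2 include the region that binds its partner S100a10, and Anxa5 has almost no sequence before its core. Coding lengths were 960 to 1041 bases for Anxa1 to Anxa5, 2022 bases for Anxa6, whose core is duplicated, 1458 bases for Anxa7 and 1512 bases for Anxa11. Aligned coding sequences of the 28 pairs were 58.7% (Anxa5 and Anxa2) to 69.9% (Anxa6 and Anxa3) identical, so none is a near copy of another. Identity was counted over bases aligned without gaps, so pairs of unlike length are not on a par. The longer Anxa6 had 67.3% to 69.9% with Anxa1 to Anxa5, and pairs among these had 58.7% to 63.5%. The genes are dispersed: Anxa1 lies at chr19:20373428-20390944 (minus strand), Anxa2 at chr9:69453620-69491795 (plus), Anxa3 at chr5:96793339-96845966 (plus), and Anxa4 at chr6:86736840-86793584 (minus). Anxa5 lies at chr3:36448923-36475894 (minus) and Anxa6 at chr11:54979108-55033445 (minus). Anxa7 at chr14:20455260-20480133 (minus) and Anxa11 at chr14:25842156-25886804 (plus) share a chromosome.

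Annexins Anxa1, Anxa2, Anxa3, Anxa5 and Anxa6 stood higher in differentiated cells, and the gap was largest for Anxa5. In the comparison of the 7 differentiated samples with the 4 AdESC samples, limma on log2(FPKM + 1) called 5 of the 8 members higher and 1 lower at an adjusted p under 0.05. Over all 8421 genes tested 15.9% were called, 7.37% higher and 8.57% lower. The median log2 difference was 3.00 over the 8 members and 0.02 over all genes. All 8 passed the filter of a mean of 1 FPKM. Sample means of 4 members (Anxa2, Anxa3, Anxa5 and Anxa6) were all above those of AdESCs, as for 5.87% of genes, and those of Anxa11 were all below, as for 7.72%. Without the lung sample and the RM1-1 testis sample, 5 members were still called higher and 1 lower.

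**Figure D1:**
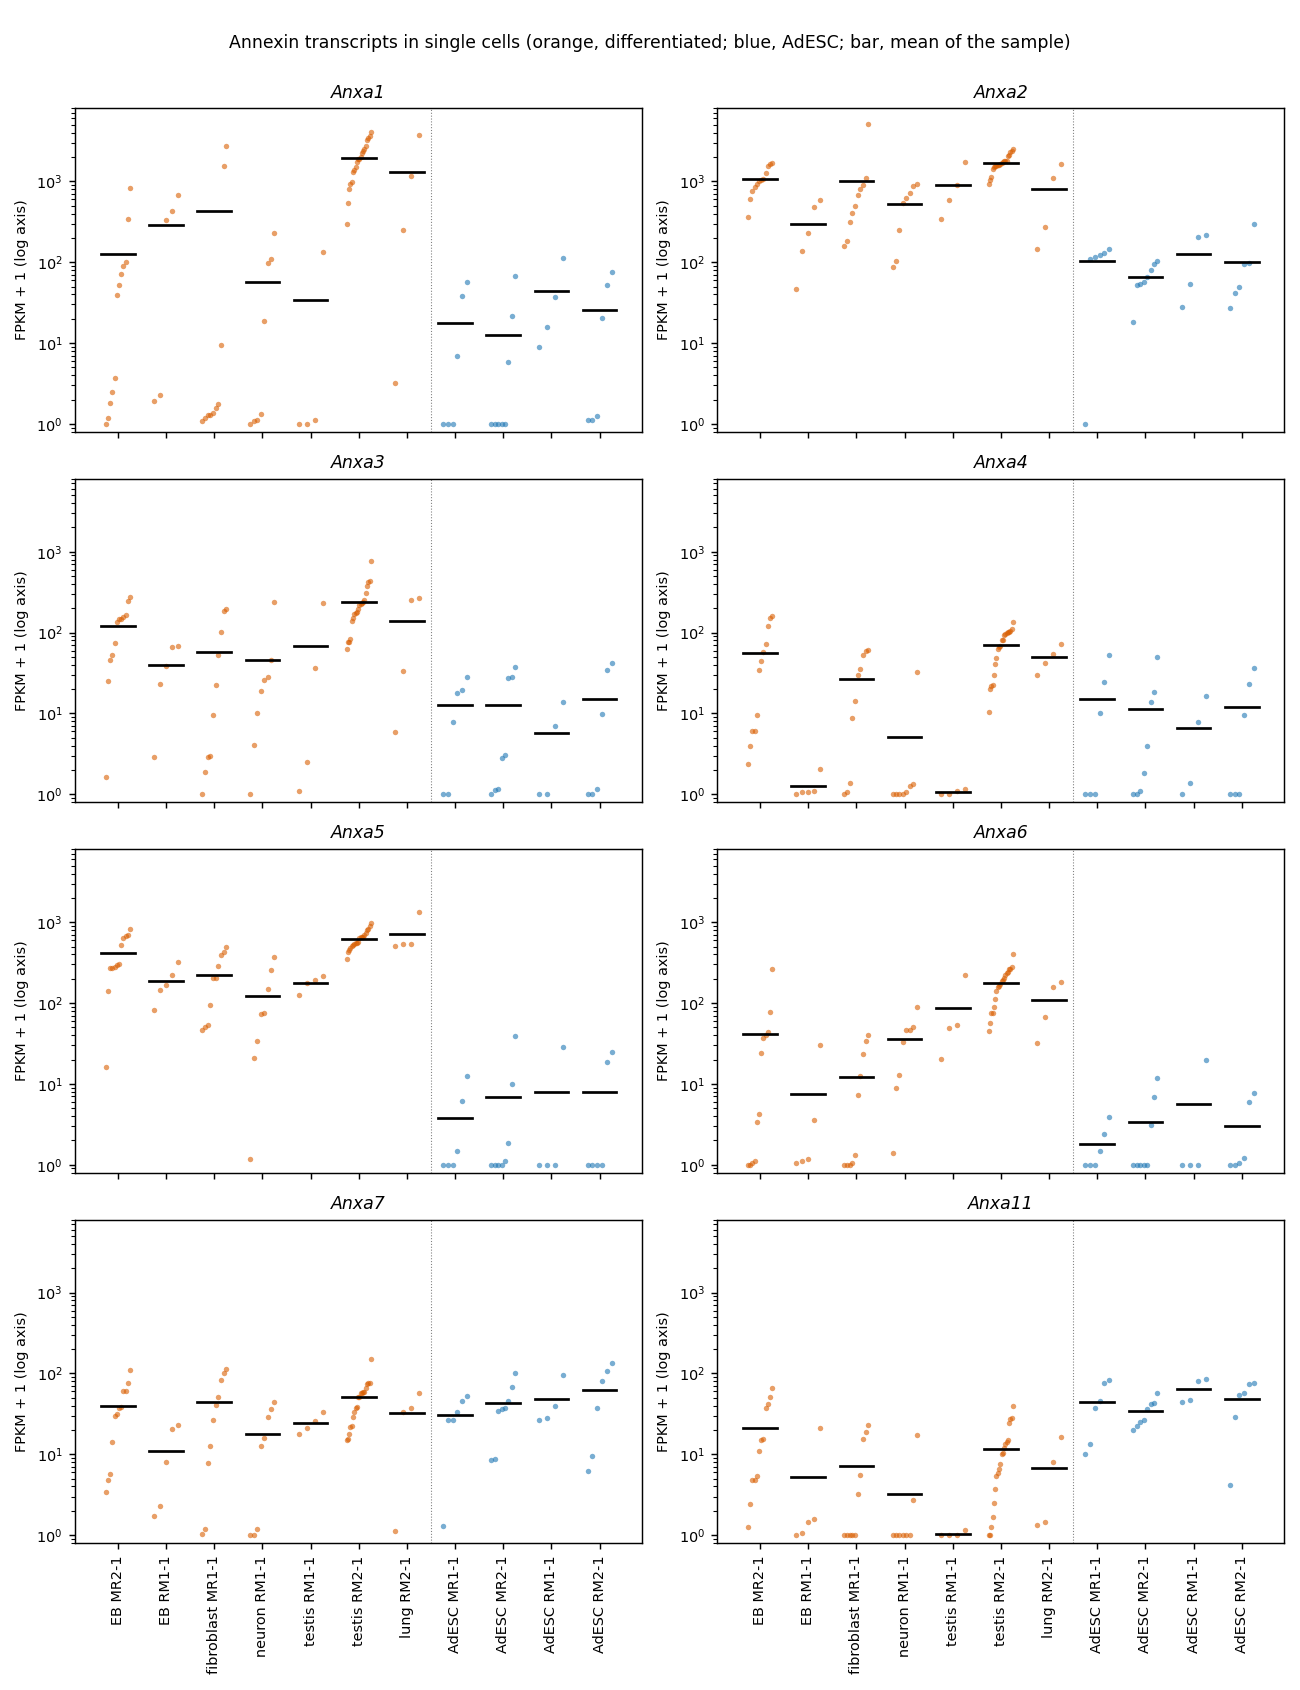
FPKM + 1 on a log axis (each panel 1 gene) in every single cell, by sample, with differentiated samples in orange on the left and AdESC samples in blue on the right; points are cells and bars are sample means of FPKM. Anxa5 was at 1 FPKM or more in 62 of 63 differentiated cells and in 7 of 24 AdESCs, whereas Anxa11 was at that level in 37 of 63 differentiated cells and in 24 of 24 AdESCs.

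Anxa5 binds phosphatidylserine and assembles into lattices on damaged membrane, which is also why the purified protein is used to stain dying cells. It averaged 411 FPKM in EBs of MR2-1, 185 in EBs of RM1-1, 224 in fibroblasts, 121 in neurons, 178 in testis cells of RM1-1, 625 in testis cells of RM2-1 and 723 in lung cells. The AdESC samples averaged 2.83 (MR1-1), 5.98 (MR2-1), 6.94 (RM1-1) and 6.91 FPKM (RM2-1). The lung and RM2-1 testis samples were highest, the neurons lowest, and the groups were far apart. The log2 difference was 5.50 ± 0.46 (SE, n = 7 and 4; limma, adjusted p = 1.43e-06). The gap was visible cell by cell, since 62 of 63 differentiated cells reached 1 FPKM, the exception being a neuron at 0.19 FPKM, against 7 of 24 AdESCs. The highest AdESC had 38.0 FPKM, and in RM1-1 the mean came from 1 of 4 AdESCs.

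Anxa2, which pairs with S100a10 at the inner face of the membrane and binds plasminogen activators at the surface, had the highest group mean of the 8 in both states, though Anxa1 exceeded it in testis cells and lung cells of RM2-1. It averaged 1063 FPKM in EBs of MR2-1, 297 in EBs of RM1-1, 1014 in fibroblasts, 516 in neurons, 888 in testis cells of RM1-1, 1704 in testis cells of RM2-1 and 793 in lung cells. AdESCs of the 4 lines averaged 103 (MR1-1), 64.7 (MR2-1), 126 (RM1-1) and 100.2 FPKM (RM2-1). No sample of either group reached into the other, and EBs of RM1-1 lay closest to AdESCs. The log2 difference was 3.04 ± 0.37 (limma, adjusted p = 5.37e-05). Anxa2 was a gain on an existing level: 63 of 63 differentiated cells and 23 of 24 AdESCs were at 1 FPKM or more. For Anxa5 7 of 24 single AdESCs reached that level. Bulk libraries of the 4 AdESC lines nevertheless had 19.6 to 23.5 FPKM of Anxa5.

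Anxa3, known as a marker of microglia and neutrophils, averaged 121 FPKM in EBs of MR2-1, 39.0 in EBs of RM1-1, 56.5 in fibroblasts, 45.5 in neurons, 66.7 in testis cells of RM1-1, 240 in testis cells of RM2-1 and 139 in lung cells. Means in AdESCs were 11.6 (MR1-1), 11.7 (MR2-1), 4.77 (RM1-1) and 14.0 FPKM (RM2-1). Every differentiated sample was above every AdESC sample. The log2 difference was 2.96 ± 0.47 (limma, adjusted p = 0.00061). Cells at 1 FPKM or more numbered 58 of 63 among differentiated cells and 14 of 24 among AdESCs.

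Anxa6, the annexin with a doubled core, binds endosomes and cholesterol-rich membrane. It averaged 40.4 FPKM in EBs of MR2-1, 6.41 in EBs of RM1-1, 11.2 in fibroblasts, 35.3 in neurons, 85.8 in testis cells of RM1-1, 178 in testis cells of RM2-1 and 109 in lung cells. The 4 AdESC samples had means of 0.79 (MR1-1), 2.33 (MR2-1), 4.63 (RM1-1) and 1.97 FPKM (RM2-1). Both testis samples and the lung sample were highest, and the EBs of RM1-1 stood only just above the RM1-1 AdESCs; in each of these, 1 cell held over 90% of the total. The log2 difference was 3.73 ± 0.74 (limma, adjusted p = 0.00322). All 24 testis cells were at 1 FPKM or more, against 10 of 17 EB cells and 8 of 24 AdESCs.

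Anxa1, a glucocorticoid-induced protein that damps inflammation through formyl peptide receptors, was called higher but was the least even of the 5. It averaged 127 FPKM in EBs of MR2-1, 289.5 in EBs of RM1-1, 429 in fibroblasts, 56.4 in neurons, 32.7 in testis cells of RM1-1, 1970.3 in testis cells of RM2-1 and 1298 in lung cells. Among AdESC samples the means were 16.5 (MR1-1), 11.5 (MR2-1), 42.4 (RM1-1) and 24.3 FPKM (RM2-1). The groups overlapped, because the RM1-1 testis cells lay below the RM1-1 AdESCs. The log2 difference was 3.55 ± 0.91 (limma, adjusted p = 0.0151). The call was lost without the AdESCs of MR1-1 (adjusted p = 0.0543) or of MR2-1 (0.0602), with all genes kept (0.0626), and when cells were averaged on the log2 scale (0.216); it held in the other 13 alternatives.

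Single cells of a sample differed widely in Anxa1. In fibroblasts the median cell had 0.45 FPKM, 3 of 10 cells reached 1 FPKM, and the highest cell had 2745 FPKM. In testis cells of RM1-1 1 of 4 cells reached 1 FPKM, at 131 FPKM. Testis cells of RM2-1 were alike by comparison: the lowest of 20 cells had 299 FPKM, the median 1896 and the highest 4065. Lung cells ran from 2.25 to 3790.4 FPKM. Among AdESCs 13 of 24 cells reached 1 FPKM.

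Anxa11 went the other way. It carries the long proline-rich stretch printed above, takes part in the final separation of dividing cells and tethers RNA granules to lysosomes. It averaged 20.4 FPKM in EBs of MR2-1, 4.22 in EBs of RM1-1, 6.15 in fibroblasts, 2.23 in neurons, 0.04 in testis cells of RM1-1, 10.6 in testis cells of RM2-1 and 5.73 in lung cells. The AdESC samples averaged 43.4 (MR1-1), 33.0 (MR2-1), 63.8 (RM1-1) and 48.0 FPKM (RM2-1). Every differentiated sample was below every AdESC sample, and the RM1-1 testis cells were nearly at 0. In EBs of RM1-1 and in neurons 1 cell held over 90% of the Anxa11 total. The log2 difference was −3.02 ± 0.64 (limma, adjusted p = 0.00478). All 24 AdESCs had at least 3.2 FPKM, whereas 17 of 63 differentiated cells were listed at 0.

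Anxa7, the other annexin with a proline-rich start, promotes fusion of secretory granules. It averaged 38.4 FPKM in EBs of MR2-1, 10.1 in EBs of RM1-1, 43.0 in fibroblasts, 16.8 in neurons, 23.6 in testis cells of RM1-1, 49.6 in testis cells of RM2-1 and 31.4 in lung cells. AdESCs of the 4 lines averaged 30.0 (MR1-1), 41.6 (MR2-1), 46.6 (RM1-1) and 61.2 FPKM (RM2-1). The groups overlapped, and the log2 difference of −0.66 ± 0.41 did not pass the test (limma, adjusted p = 0.279; 95% interval −1.54 to 0.21). The interval leaves room for a fall of more than 2-fold as well as for a small rise.

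Anxa4, an annexin of secretory and absorptive epithelia, was uneven across samples. It averaged 54.8 FPKM in EBs of MR2-1, 25.5 in fibroblasts of MR1-1, 68.6 in testis cells of RM2-1 and 48.4 in lung cells of RM2-1. The samples of RM1-1 averaged 0.26 in EBs, 4.08 in neurons and 0.06 FPKM in testis cells. AdESCs averaged 14.1 (MR1-1), 10.4 (MR2-1), 5.67 (RM1-1) and 11.1 FPKM (RM2-1). The 3 differentiated samples of RM1-1 were thus all below the AdESC samples and the other 4 all above. Over all 7 samples the log2 difference was 0.14 ± 1.08 (limma, adjusted p = 0.947; 95% interval −2.16 to 2.43). Among neurons 1 of 8 cells reached 1 FPKM, at 31.9 FPKM, and 0 of 4 RM1-1 testis cells did.

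**Figure D2:**
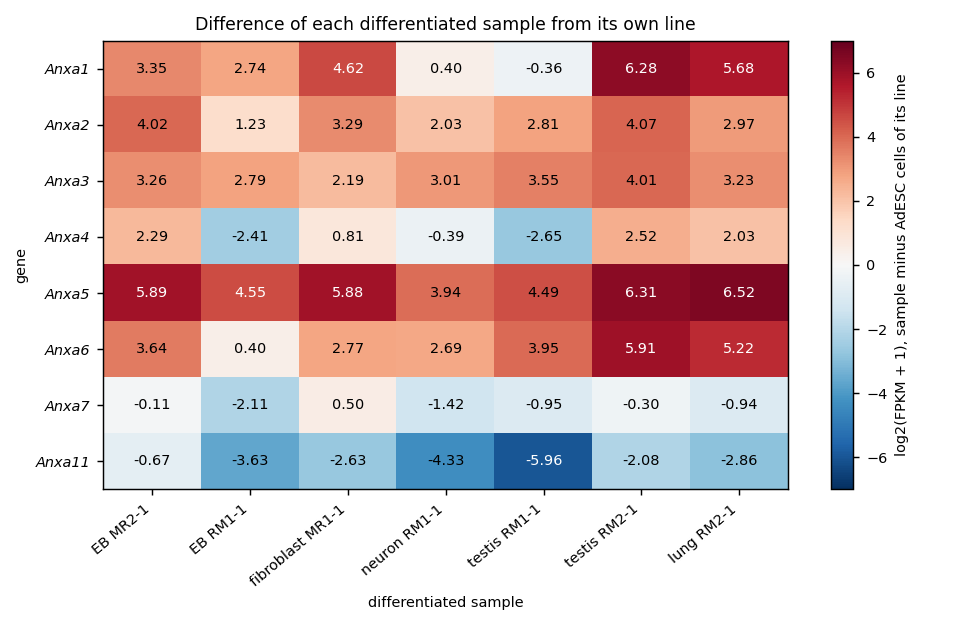
Difference of log2(FPKM + 1) between each differentiated sample (columns) and the AdESC sample of the same line, for the 8 annexins (rows); red is higher and blue lower in the differentiated sample. Anxa5 was higher by 3.94 to 6.52 in all 7 samples and Anxa11 lower by 0.67 to 5.96, while Anxa4 changed sign between lines.

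Set against AdESCs of its own line, each sample has 1 value per gene and no test. Members past 4-fold higher (a log2 difference of 2) numbered 6 in EBs of MR2-1, where 11.2% of genes were past it, and 3 in EBs of RM1-1, with 12.4% of genes. They numbered 5 in fibroblasts (14.1% of genes), 4 in neurons (15.6%) and 4 in testis cells of RM1-1 (15.9%). In the 2 samples of RM2-1 they numbered 6 each, in testis cells (12.9% of genes) and in lung cells (15.3%). Members past 4-fold lower numbered 3 in EBs of RM1-1, as many as were higher there: Anxa4 at −2.41, Anxa7 at −2.11 and Anxa11 at −3.63, with 10.8% of genes. They numbered 2 in testis cells of RM1-1, Anxa4 and Anxa11 (11.9% of genes), and 0 in EBs of MR2-1 (8.45%). Anxa11 was the 1 such member in fibroblasts (10.8%), neurons (9.5%), RM2-1 testis cells (9.67%) and lung cells (18.5%). Anxa3 and Anxa5 were past 4-fold higher in all 7 samples. Anxa2 missed it in EBs of RM1-1, at 1.23. Anxa6 missed it in the same sample, at 0.40, and Anxa1 missed it in neurons, at 0.40, and in RM1-1 testis cells, at −0.36. The median over the 8 members was 4.04 in testis cells and 3.10 in lung cells of RM2-1 and 3.31 in EBs of MR2-1. It was 2.48 in fibroblasts of MR1-1 and 0.81 to 1.22 in the samples of RM1-1.

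The order of the members by level also differed between states. In differentiated samples the means were 896 ± 449 FPKM for Anxa2, 600.4 ± 745 for Anxa1, 352 ± 239 for Anxa5, 101 ± 72.1 for Anxa3 and 66.7 ± 61.9 for Anxa6 (SD, n = 7 samples). Anxa7 followed at 30.4 ± 14.3, Anxa4 at 28.8 ± 28.6 and Anxa11 at 7.04 ± 6.74. The ranges of neighbours in that order overlapped throughout. In AdESC samples the order was Anxa2 at 98.4 ± 25.2 FPKM, Anxa11 at 47.0 ± 12.8, Anxa7 at 44.9 ± 12.9 and Anxa1 at 23.7 ± 13.6 (SD, n = 4 samples). Anxa3 at 10.5 ± 3.98, Anxa4 at 10.3 ± 3.49, Anxa5 at 5.66 ± 1.94 and Anxa6 at 2.43 ± 1.61 closed it. There Anxa2 alone did not overlap with its neighbour, and by a narrow margin. Among single-cell samples Anxa5 was thus near the bottom in AdESCs and near the top after differentiation, and Anxa11 the reverse. In bulk AdESC libraries Anxa5 ranked 4 or 5 among the 8 members.

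EBs and testis cells have 2 samples each, from different lines, and were tested on their own. The 2 testis samples also came from chimaeras of different species and carried different markers, so they share a label more than a shown cell type. Between RM1-1 and RM2-1 testis cells Anxa1 stood at 32.7 and 1970 FPKM and Anxa4 at 0.06 and 68.6 FPKM. In EBs limma called 3 members higher than in AdESCs (Anxa2, Anxa3 and Anxa5) and none lower, against 6.64% of all genes called, 2.77% higher and 3.87% lower. Anxa5 differed by 5.44 ± 0.54 on the log2 scale (adjusted p = 0.000159), Anxa2 by 2.54 ± 0.46 (0.00705) and Anxa3 by 2.69 ± 0.62 (0.0245). The call for Anxa2 was lost without EBs of MR2-1 (adjusted p = 0.0744) and with all genes kept (0.0715). The call for Anxa3 was lost without EBs of MR2-1 (0.202), without AdESCs of MR1-1 (0.0573), MR2-1 (0.0561) or RM1-1 (0.0719), with all genes kept (0.107) and with cells averaged on the log2 scale (0.0522). Among the others Anxa1 differed by 3.12 ± 1.15 (adjusted p = 0.132), Anxa6 by 2.47 ± 0.72 (0.0633) and Anxa11 by −2.15 ± 0.84 (0.157). Without EBs of RM1-1 the difference of Anxa6 was 3.71. Anxa11 was called when cells were averaged on the log2 scale (−2.96, adjusted p = 0.0493). Anxa1 was called without either testis sample (adjusted p = 0.0154 and 0.0193). Leaving out a testis sample changes the shared estimate of spread and the genes tested, but not the EB or AdESC samples. With cell line as a replicate block the same number of members was called, but only 249 of all genes against 546.

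In testis cells limma called 4 members higher (Anxa2, Anxa3, Anxa5 and Anxa6) and 1 lower (Anxa11), against 12.3% of all genes, 6.19% higher and 6.12% lower. Anxa5 differed from AdESCs by 5.71 ± 0.54 on the log2 scale (adjusted p = 6.5e-05), Anxa6 by 5.30 ± 0.72 (0.000899) and Anxa2 by 3.67 ± 0.46 (0.000489). Anxa3 differed by 3.56 ± 0.62 (adjusted p = 0.00359), and its call was lost without testis cells of RM2-1 (0.0692). Anxa11 differed by −3.76 ± 0.84 (adjusted p = 0.0138), and its call was lost without testis cells of RM1-1 (−2.02, adjusted p = 0.136) and with all genes kept (0.0783). Anxa1 differed by 3.54 ± 1.15 and missed the threshold (adjusted p = 0.0662), and without testis cells of RM1-1 it was called (6.48, adjusted p = 0.00273). With cell line as a replicate block 5 members were still called, and 449 of all genes against 1012.

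Testis cells and EBs did not differ detectably in any member. Limma called 0 of 8 members between them, and 0.122% of all genes (0.0608% in each direction), while 1 member had an unadjusted p under 0.05. That member was Anxa6, at 132 ± 65.3 FPKM in testis samples and 23.4 ± 24.0 FPKM in EB samples (SD, n = 2 each), a log2 difference of 2.83 ± 0.84 (95% interval 1.01 to 4.65; adjusted p = 0.325). It passed when cells were averaged on the log2 scale (4.23, adjusted p = 0.0329). For Anxa5 the difference was 0.27 ± 0.63 (interval −1.10 to 1.64). The EB and testis differences from AdESCs share the same 4 AdESC samples.

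**Figure D3:**
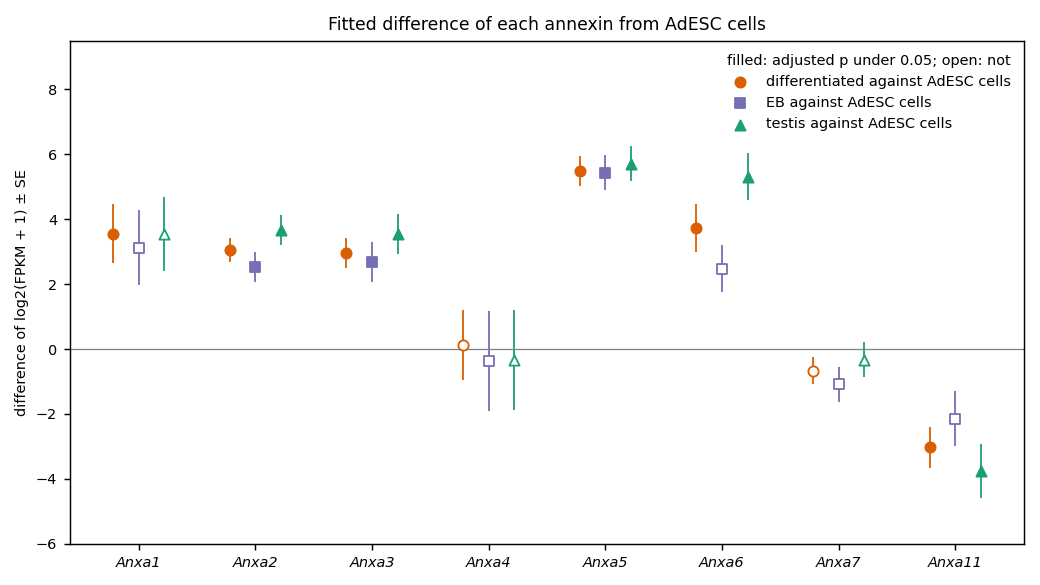
Fitted difference of log2(FPKM + 1) from AdESC cells for each annexin, with SE, over all 7 differentiated samples (circles), the 2 EB samples (squares) and the 2 testis samples (triangles); filled symbols passed an adjusted p of 0.05 in limma. Anxa5 stood at 5.50, 5.44 and 5.71, whereas Anxa11 lay below 0 in all 3 comparisons.

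How often the 5 raised annexins were present in the same cell differed between samples. In testis cells of RM2-1 all 5 were at 10 FPKM or more in 20 of 20 cells, and in lung cells in 3 of 4. They were in 3 of 12 cells and 1 of 5 cells of the EBs of MR2-1 and RM1-1, 0 of 10 fibroblasts, 1 of 8 neurons and 1 of 4 testis cells of RM1-1. Among AdESCs 1 of 8 cells of MR2-1 had all 5 and no cell of the other lines did. Over the 11 sample means, Pearson's r of log2(FPKM + 1) was 0.88 to 0.94 among Anxa2, Anxa3, Anxa5 and Anxa6 and 0.68 to 0.83 between Anxa1 and each of these. It was −0.33 to −0.68 between Anxa11 and the 5, and 0.62 between Anxa11 and Anxa7. These coefficients describe samples that share the split between AdESCs and differentiated cells.

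Of the fibroblast markers limma called 5 of 14 higher in differentiated samples and none lower, and of the smooth muscle markers 3 of 5 and none, where 7.37% of all genes were called higher. The 14 measured fibroblast markers summed to 960 to 3771 FPKM in differentiated samples and to 110.0 to 144 FPKM in AdESC samples. Markers at 1 FPKM or more numbered 4 to 14 in differentiated samples and 2 to 4 in AdESC samples. Cell by cell the contrast was smaller: the median cell had 2.5 to 7 of the 14 fibroblast markers at 10 FPKM or more in differentiated samples and 2 in each AdESC sample. The 5 smooth muscle markers summed to 73.4 to 5585 FPKM in differentiated samples and to 3.2 to 10.1 FPKM in AdESC samples. Testis cells and lung cells of RM2-1 were highest in Anxa1, Anxa3, Anxa5 and Anxa6. These samples were also highest in smooth muscle markers, led by Tagln at 3939 and 2390 FPKM. Anxa2 differed, since lung cells at 793 FPKM lay below EBs of MR2-1 (1063), fibroblasts (1014) and RM1-1 testis cells (888). In neurons and RM1-1 testis cells the collagens Col1a1, Col1a2 and Col3a1 lay at or near 0, while the whole fibroblast list summed to 2023 FPKM in neurons and 3722 FPKM in RM1-1 testis cells. The part of these markers' cells in the annexin differences was not tested.

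Genes whose pattern over the 11 samples was most like that of each member were listed by Pearson's r, 3 per member, as a description. For Anxa5 they were Arf4 (r = 0.99), Timp2 (0.98) and Tpm4 (0.97), a vesicle GTPase, a protease inhibitor and a tropomyosin. For Anxa2 they were F3, the coagulation tissue factor, Cd63, a tetraspanin, and Dap (0.96 each). For Anxa3 they were Tnfrsf12a, Calu and S100a11 (0.97 each), and for Anxa6 Cd44 (0.97), the hyaluronan receptor, Tagln2 (0.97) and Drap1 (0.96). For Anxa1 they were Ppfibp1 (0.97), Abracl (0.96) and Gpx3 (0.95). Anxa4 was nearest to Mtmr6, Furin (0.91 each) and Fam198b (0.90), Anxa7 to Ifi35 (0.93), Tpd52 (0.92) and Clptm1 (0.88), and Anxa11 to Echdc2 (0.97), Mlf2 (0.96) and Sephs2 (0.94). All of the genes near Anxa1, Anxa2, Anxa3, Anxa5 and Anxa6 had their highest sample mean in a differentiated sample. That follows from choosing them by likeness to these annexins and is no separate result.

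Partners of the annexins were counted in lists chosen by function. Of 13 measured S100 proteins, small calcium sensors that bind annexin N-termini, 7 passed the filter, 3 were called higher and none lower, where 7.37% of all genes were called higher and 8.57% lower. Their median log2 difference was 2.64, against 0.02 over all genes. S100a10, the partner of Anxa2, averaged 356 and 326 FPKM in EBs of MR2-1 and RM1-1, 351 in fibroblasts, 528 in neurons, 1069 and 636 in testis cells of RM1-1 and RM2-1 and 572 in lung cells. In AdESCs it averaged 51.1 to 75.0 FPKM, below all of these. Its log2 difference was 3.03 ± 0.30 (limma, adjusted p = 9.45e-06), close to the 3.04 of Anxa2. S100a6, at 34.8 to 2421 FPKM against 10.8 to 56.6 FPKM in AdESCs, differed by 3.84 ± 1.01 (adjusted p = 0.0185). S100a11, a partner of Anxa1, had 221 to 2409.9 FPKM in differentiated samples and 86.2 to 153 FPKM in AdESCs and differed by 2.46 ± 0.50 (adjusted p = 0.00393).

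Of 9 measured genes of the plasminogen system, whose activator binds Anxa2 at the cell surface, 7 passed the filter and 2 were called higher, where 7.37% of all genes were (median log2 difference 2.38, against 0.02 over all genes). Plat, the tissue plasminogen activator, had 7.82 to 58.5 FPKM in differentiated samples and at most 0.82 FPKM in AdESC samples (4.29 ± 0.53, adjusted p = 5.75e-05). Serpine2, an inhibitor of such proteases, had 5.13 to 444 FPKM in differentiated samples and 0.17 to 0.96 FPKM in AdESCs (5.37 ± 0.88, adjusted p = 0.000742). Both were highest in neurons. Both lay under 1 FPKM in every AdESC sample, so they passed the filter only through the differentiated samples. Of 16 measured genes of membrane repair, 15 passed the filter and 3 were called higher, against the same 7.37% of all genes (median log2 difference 0.82, against 0.02). They were the calpain Capn2 (4.31 ± 0.45, adjusted p = 1.22e-05) and the caveola genes Cav1 (4.81 ± 0.92, 0.00258) and Ptrf (4.01 ± 0.82, 0.00408), all by limma. None of either list was called lower. Of the formyl peptide receptors, through which Anxa1 signals, Fpr1 was measured, at 16.6 FPKM in RM1-1 testis cells and listed at 0 in the other 10 samples. Only 1 of the 4 RM1-1 testis cells had Fpr1 at 10 FPKM or more.

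The other 3 annexin rows were listed at 0 in most cells. Anxa8, which averaged 20.0 FPKM in fibroblasts, 7.56 FPKM in EBs of MR2-1 and 7.97 FPKM in AdESCs of MR1-1, had at least 1 FPKM in 8 of 63 differentiated cells and 2 of 24 AdESCs, with a log2 difference of 0.03 ± 0.92 (limma, adjusted p = 0.987). Anxa10 was at 1 FPKM or more in 0 of 63 differentiated cells and 1 of 24 AdESCs, and Anxa13 in 1 of 63 differentiated cells, a fibroblast, and 0 of 24 AdESCs.

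**Figure D4:**
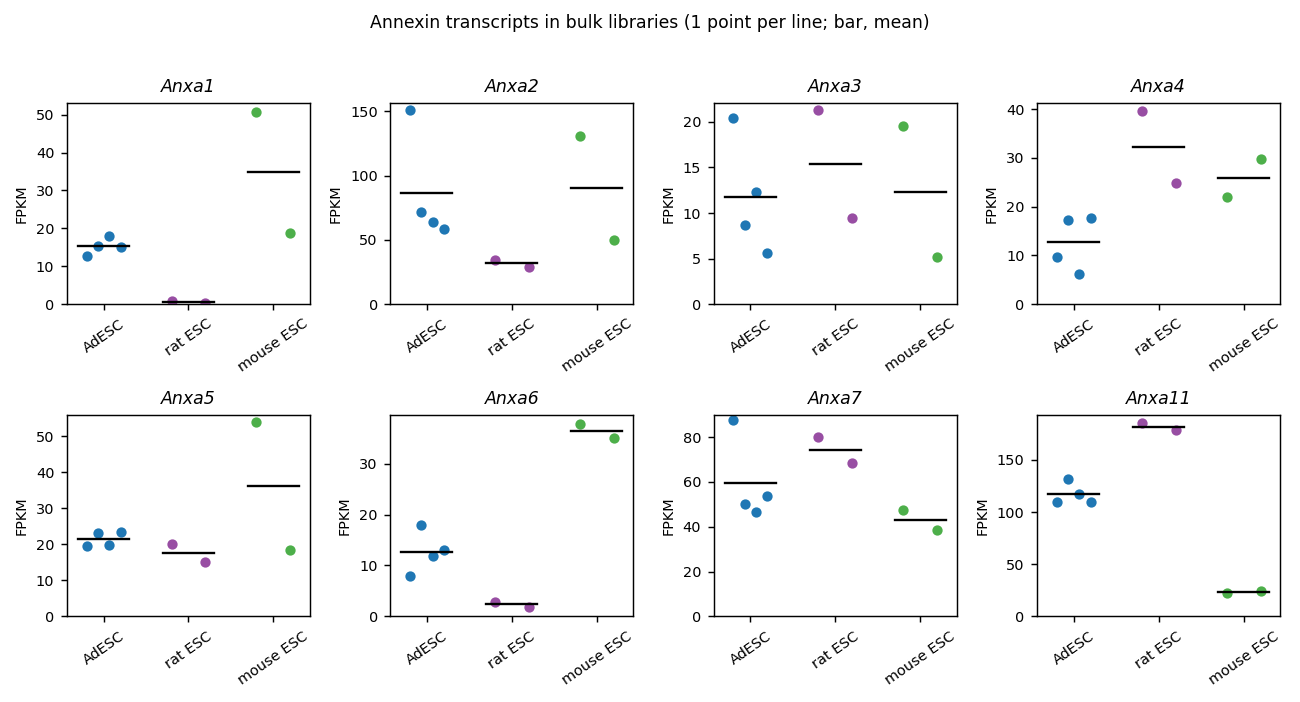
FPKM of the 8 annexins in bulk libraries, 1 point per line, for AdESC (4 lines), rat ESC (2 lines) and mouse ESC (2 lines), with bars at group means and a separate linear axis per gene. Anxa11 lay between 109 and 132 FPKM in AdESCs, below both rat lines and above both mouse lines, and Anxa1 and Anxa6 lay below both mouse lines and above both rat lines.

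In bulk stem cells 3 of 8 members differed between rat and mouse ESCs, as did 26.6% of all genes, and lay between these groups in AdESCs. How many of all genes lay between in this way, or had bulk groups without overlap, was not counted. Neither trait is therefore shown to be particular to annexins. How mouse and rat values were joined in AdESC libraries is not given in the sources used here, and in bulk a smaller share of expressing cells and less RNA per cell cannot be told apart. Limma called 2 of 8 members higher and none lower in AdESCs against rat ESCs, with 9.7% of genes called (5.79% higher, 3.91% lower). Against mouse ESCs 1 was higher and 1 lower in AdESCs, with 3.89% of genes called (2.71% higher, 1.18% lower). In rat against mouse ESCs 1 was higher and 2 lower, with 26.6% of genes called (14.1% higher, 12.6% lower). These comparisons share libraries.

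Anxa11 had 109 (MR1-1), 132 (MR2-1), 117 (RM1-1) and 110.2 FPKM (RM2-1) in AdESCs, 185 and 179 FPKM in the rat lines DA25 and DA53, and 22.6 and 24.1 FPKM in the mouse lines F145 and F146. The 3 groups did not overlap. AdESCs exceeded mouse ESCs by 2.28 ± 0.21 on the log2 scale (limma, adjusted p = 0.000419), and their difference from rat ESCs was −0.63 ± 0.21 (adjusted p = 0.0847). Rat ESCs exceeded mouse ESCs by 2.91 ± 0.24 (adjusted p = 2.95e-05).

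Anxa1 had 12.7 (MR1-1), 15.4 (MR2-1), 18.0 (RM1-1) and 15.1 FPKM (RM2-1) in AdESCs, 0.86 and 0.43 FPKM in DA25 and DA53, and 50.7 and 18.9 FPKM in F145 and F146. The groups did not overlap, although F146 lay close to RM1-1. AdESCs exceeded rat ESCs by 3.31 ± 0.38 (limma, adjusted p = 0.000405), and their difference from mouse ESCs of −0.98 ± 0.38 missed the threshold (adjusted p = 0.186). It passed without F146 (−1.67, adjusted p = 0.0342). Rat ESCs were lower than mouse ESCs, at −4.29 ± 0.43 (adjusted p = 0.000109).

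Anxa6 had 7.87 (MR1-1), 17.8 (MR2-1), 11.8 (RM1-1) and 13.1 FPKM (RM2-1) in AdESCs, 2.89 and 1.88 FPKM in DA25 and DA53, and 37.8 and 34.9 FPKM in F145 and F146. The groups did not overlap. AdESCs exceeded rat ESCs by 1.98 ± 0.33 (limma, adjusted p = 0.00458), a call lost without DA53 (1.76, adjusted p = 0.0854). They were lower than mouse ESCs, at −1.50 ± 0.33 (adjusted p = 0.0389). That call did not hold when any of 7 single libraries was left out (adjusted p = 0.0503 to 0.123), all but MR2-1, nor with all genes kept (0.06) or with rat ESCs left out of the fit (0.0669). Rat ESCs were lower than mouse ESCs, at −3.48 ± 0.38 (adjusted p = 0.00017).

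The other 5 members were not called between stem cell groups in the FPKM as deposited. With upper-quartile scaling Anxa2 was called in AdESCs against rat ESCs (1.64, adjusted p = 0.0485) and in rat against mouse ESCs (−1.62, adjusted p = 0.0451). Anxa2 had 151 (MR1-1), 71.7 (MR2-1), 63.5 (RM1-1) and 58.6 FPKM (RM2-1) in AdESCs, 34.5 and 29.2 FPKM in the rat lines, and 131 and 49.9 FPKM in the mouse lines. S100a10 was highest in MR1-1 too, at 241 FPKM against 32.4 to 128 FPKM in the other AdESC lines. Between rat and mouse lines Anxa2 differed by −1.32 ± 0.51 (limma, adjusted p = 0.0829) and was called without F146 (−2.01, adjusted p = 0.0263) or without MR1-1 (0.0383). Anxa5 had 19.6 to 23.5 FPKM in AdESCs, 20.2 and 15.0 in the rat lines, and 54.0 and 18.6 FPKM in the mouse lines. Rat and mouse lines differed in Anxa5 by −0.83 ± 0.43 (limma, adjusted p = 0.18), and without F146 it was called (−1.58, adjusted p = 0.0101). Anxa3 had 5.57 to 20.4 FPKM in AdESCs, 21.3 and 9.45 FPKM in the rat lines, and 19.5 and 5.14 FPKM in the mouse lines, and the 3 groups overlapped. Anxa4 had 6.22 to 17.7 FPKM in AdESCs, below the 24.9 and 39.7 FPKM of rat and the 22.1 and 29.9 FPKM of mouse lines, at −1.35 ± 0.41 against rat (limma, adjusted p = 0.0697) and −1.07 ± 0.41 against mouse (0.191). Anxa7 had 46.5 to 87.5 FPKM in AdESCs, 80.0 and 68.6 FPKM in the rat lines, and 47.6 and 38.5 FPKM in the mouse lines.

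In the mouse lines Anxa1, Anxa2, Anxa3 and Anxa5 were 2.63 to 3.79 times as high in F145 as in F146. The 14 fibroblast markers summed to 555 to 748 FPKM in AdESCs, 368 and 694 FPKM in DA25 and DA53, and 3820 and 688 FPKM in F145 and F146. Their mean log2 value was 2.85 to 4.18 in AdESCs, 1.35 and 1.28 in DA25 and DA53, and 6.93 and 4.31 in F145 and F146. In single AdESCs it was 0.88 to 1.17. The number listed at 0 was 0 in AdESC and mouse libraries, 5 in each rat library, and 6 to 11 in single AdESC samples. The part of fibroblast RNA in the bulk annexin values was not tested.

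Single AdESCs were lower than the bulk library of their own line in Anxa5, by 1.40 to 2.42 on the log2 scale in all 4 lines, in Anxa6 by 1.18 to 2.50 and in Anxa11 by 0.87 to 1.97. Anxa5, for example, averaged 2.83, 5.98, 6.94 and 6.91 FPKM in cells of MR1-1, MR2-1, RM1-1 and RM2-1 and had 19.6, 23.2, 19.9 and 23.5 FPKM in their bulk libraries. Differences of the other 5 members changed sign between lines. The tables were made separately, so these values carry no test. Bulk Anxa5 in AdESCs nevertheless lay below the lowest differentiated single-cell sample, the neurons at 121 FPKM, and bulk Anxa11 above the highest, the EBs of MR2-1 at 20.4 FPKM.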

How the data were processed

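RNA of 8 bulk libraries and 87 single cells was sequenced by the authors. The deposited values are FPKM, 1 per gene and library, made by the authors; the unit was inferred, since the submitters' processing notes list Cufflinks 2.1.1, TopHat2 2.0.10 and FastQC 0.10.1 beside the builds mm10 and rn5. FPKM hide read depth, so no counting interval is given. No 2 columns held identical values, and none was left unassigned. Cells are not replicates: each sample entered as the mean FPKM of its cells.

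Group means of log2(FPKM + 1) were compared by limma 3.58.1 (R 4.3.3; moderated variances with a trend). Genes averaging under 1 FPKM across the fitted samples were dropped, which left 8421 genes for all single-cell samples, 8218 for EB, testis and AdESC samples and 8794 for bulk. Benjamini-Hochberg adjustment covered every tested gene, and 0.05 was the threshold. A log2 difference with 1 added understates changes of low genes. EB, testis and AdESC samples shared 1 fit, as did the 3 bulk groups. The procedure was tested on simulated data for the size of planted differences. Samples were drawn there as independent, and false calls were not counted. No label says that samples came from separate cultures, so the p-values reflect no more than the scatter among these samples, which may be technical.

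Alternatives were a pseudocount of 0.1, no filter, upper-quartile scaling, averaging cells on the log2 scale, cell line as a replicate block, only the groups compared, and leaving out each sample. Differentiated and AdESC samples are paired by cell line; their deviations from group means correlated by −0.02 to 0.04 within lines. Members and gene lists were chosen with earlier results of these data known. Named genes are the 8 members, the other annexins, list genes past the threshold, or the 3 with the largest difference where more or none passed, and the 3 genes nearest in pattern to each member. Sequences are of GENCODE M21 on GRCm38, 1 transcript per gene. Rat sequences were not used here.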

Additional observations from a re-analysis of the deposited data

How the results depend on the processing

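The member calls of the main comparison, differentiated against AdESC cells, were 6, and 5 or 6 in 17 alternatives. Anxa2, Anxa3, Anxa5, Anxa6 and Anxa11 kept direction and call in all 17, and the cause of each change below was not tested. With cell line as a replicate block 6, 3 and 5 members were called in the differentiated, EB and testis comparisons, the same numbers as without it, while genes called in all were 1457, 249 and 449, and 1 between testis and EB; the block changed no member's call. With no filter EBs had 1 member and 346 genes called, testis against EB 35 genes, and bulk AdESC against mouse ESC 1 member. With cells averaged on the log2 scale testis against EB had 1 member and 37 genes called, and calls higher and lower were 456 and 1152 against 621 and 722 in the main comparison and 187 and 425 against 228 and 318 in EBs. With only the groups compared, AdESC against mouse ESC gave 1 member and 137 genes. With upper-quartile scaling the median difference over all genes was 0.20 (main −0.11) in AdESC against rat ESC and −0.19 (main 0.08) in rat against mouse ESC. Calls higher and lower became 752 and 164 (main 509 and 344) and 887 and 1501 (main 1239 and 1104), and Anxa2 was then called (1.64, adjusted p = 0.0485, and −1.62, adjusted p = 0.0451).

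Leaving out each sample in turn gave 791 to 1367 genes in the main comparison, 282 to 711 with 1 to 4 members in EBs, 619 to 1180 with 4 to 5 members in testis cells, and 3 to 121 with 0 members between testis and EB. In bulk it gave 151 to 344 genes with 1 to 2 members against mouse ESC, 223 to 1063 with 1 to 2 against rat ESC, and 1059 to 2435 with 3 to 5 between rat and mouse ESC. Directions turned only for values that had not passed. Anxa4 turned in the main comparison at a pseudocount of 0.1 (−0.43) and by sample left out (−0.29 to 0.72). In EBs it turned with cells averaged on the log2 scale (0.36), with the block (0.48) and by sample (−3.11 to 2.36), and in testis cells likewise (0.87, 0.39 and −3.35 to 2.68). Between testis and EB it turned at the pseudocount (−0.40), with the block (−0.084) and by sample (−2.98 to 3.05). Anxa7 turned in testis cells with cells averaged on the log2 scale (0.017) and by sample (−0.85 to 0.18). Between testis and EB, Anxa1 turned with the block (−1.09) and by sample (−2.51 to 3.36). So did, by sample, Anxa3 (−0.046 to 1.78), Anxa5 (−0.63 to 1.18), Anxa7 (−0.16 to 1.67) and Anxa11 (−3.35 to 0.13). Against mouse ESC, AdESCs turned for Anxa2 with upper-quartile scaling (0.018) and by sample (−0.71 to 0.67), for Anxa3 (−0.82 to 0.92) and for Anxa5 (−1.29 to 0.20). Anxa3 turned against rat ESC (−0.94 to 0.15) and between rat and mouse ESC (−0.43 to 1.31), where Anxa4 turned with upper-quartile scaling (−0.012) and by sample (−0.044 to 0.61). Read depth is unknown, and samples hold 4 to 20 cells. Outside the 8 members, 1 cell held all Anxa8 in AdESCs of MR1-1 and RM2-1, all Anxa10 in AdESCs of RM2-1 and all Anxa13 in fibroblasts. Among the 8 members, 1 cell held over 90% of the total in 7 sample means of 1 FPKM or more, all of RM1-1. They were Anxa1 in testis cells, Anxa4 and Anxa11 in neurons, Anxa6 and Anxa11 in EBs, and Anxa5 and Anxa6 in AdESCs.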
